A study of Mus musculus with 5 samples.

Results

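Osteoclasts are the cells that dissolve bone, and in the jaw joint they work in the bone under the condylar cartilage. The genes described here are 10 genes that mark these cells: Tnfrsf11a, Oscar, Calcr, Nfatc1, Itgb3, Atp6v0d2, Tcirg1, Ckb, Ctsk and Acp5. They were taken by symbol from the array's annotation, and each had exactly 1 row with its symbol alone. All 10 were measured, out of 19938 genes tested in the series, and no filter on low signal was applied.

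Total RNA was profiled on 5 arrays, each from mandibular condyle cartilage of mice of strain 129/Sv. Of these, 2 came from mice without discoidin domain receptor 1 (DDR-1-KO, here knockout 2 and knockout 5) and 3 from wild-type mice (wild type 3, 4 and 6). The labels name 1 mouse per array and give neither the allele, nor age, sex or treatment. Ddr1 encodes a collagen receptor of the tyrosine kinase family, and the comparison asks which transcripts of this tissue differ when it is missing. The dates in the arrays' names split them into 2 runs, and what was done on those dates is not stated. Knockout 2 and wild type 3 belong to run 1, and knockout 5 and wild types 4 and 6 to run 2.

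An osteoclast forms when RANKL, made by osteoblast-lineage cells and by chondrocytes, binds its receptor RANK on precursors of the monocyte line. Co-receptors of the ITAM type add a calcium signal, which activates the transcription factor NFATc1, and NFATc1 switches on the genes of the mature cell. That cell seals itself to bone through the integrin chain beta 3, pumps acid through a vacuolar proton pump (V-ATPase) and secretes the protease cathepsin K. In bulk tissue, fewer cells of a type and less RNA per cell cannot be told apart.

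Levels are log2 RMA signals, and every change is knockout minus wild type on that scale. Signals also depend on the probes of each gene, so an order of genes by signal is not an order of transcript abundance. Detection above background was not judged, and these signals do not by themselves show that osteoclasts were in the dissected tissue. The wild-type arrays had medians over genes of 5.16 to 5.17. The cartilage markers Col2a1 and Col9a3, among the brightest of their list, had wild-type means of 7.27 and 7.06. Acan, Matn3 and Matn1 had 5.40, 5.15 and 4.44, and 14 of 18 chondrocyte markers lay above the median signal of all genes. Col1a1, the collagen of bone, had 7.26, so these signals do not set cartilage apart from bone.

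The correlation over genes was 0.984 to 0.993 among wild-type arrays. It was 0.903 to 0.927 between knockout 5 and any wild-type array, and 0.814 to 0.837 for knockout 2. The gene signals spread less in the knockout arrays, with a standard deviation of 0.802 for knockout 2 and 0.906 for knockout 5 against 0.991 to 1.02 for wild type. Ddr1 itself did not pass the test (-0.14, SE 0.058, limma's adjusted p = 0.377), so it does not check the labels. In 39.1% of genes the 3 wild-type signals were identical as deposited. There the spread used by the test comes from the 2 knockout arrays and from limma's moderation.

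Of the 10 osteoclast genes, 1 fell in knockout cartilage, 0 rose and 9 did not pass the test at limma's adjusted p under 0.05. Over all genes 3.73% passed, 1.55% as rises and 2.18% as falls. A fold change of at least 2 in either direction was measured for 1 osteoclast gene and for 2.66% of all genes. At an unadjusted p under 0.05 the osteoclast genes counted 4, against 18.2% of all genes. The gene that fell was Ckb, the brain-type creatine kinase, which osteoclasts use to supply ATP. The remaining genes formed 2 kinds. For Itgb3, Acp5, Ctsk and Atp6v0d2 both knockout arrays lay on 1 side of all wild-type arrays, as for 31.5% of all genes. For Tnfrsf11a, Oscar, Calcr, Nfatc1 and Tcirg1 a single knockout array differed and the other 4 arrays were identical, as for 17.7% of all genes.

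**Figure D1:**
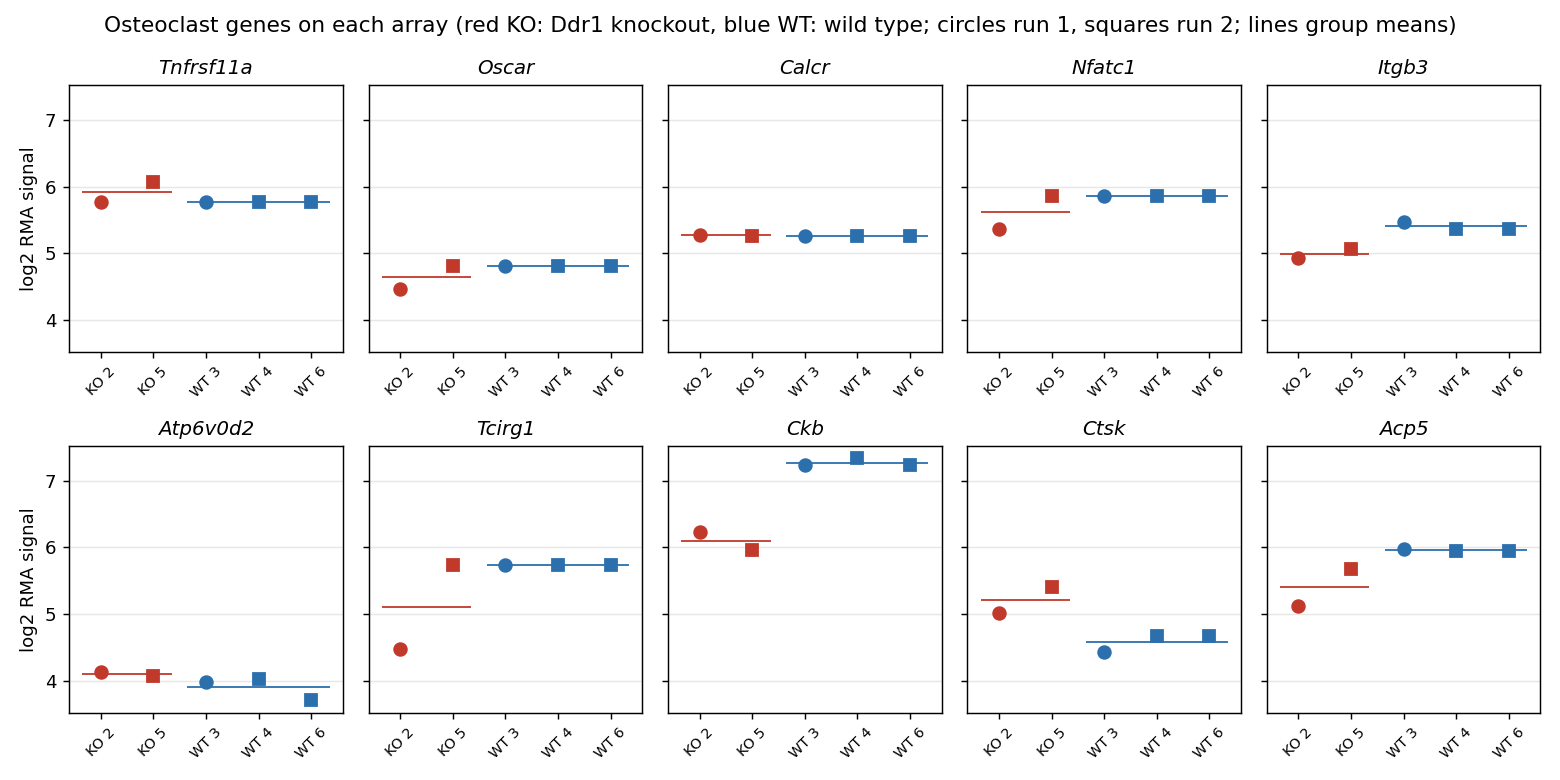
Log2 RMA signal (vertical axis) of each of the 10 osteoclast genes on each array (horizontal axis), with knockout arrays in red, wild-type arrays in blue, circles for run 1, squares for run 2 and lines for group means. Ckb stands lower in both knockout arrays (6.23 and 5.97) than in wild type (7.23 to 7.35), and Ctsk higher (5.01 and 5.40 against 4.43 to 4.66).

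The promoters of 3 of the 5 genes whose groups did not overlap are shown, so that a gene that fell (Ckb) can be read beside 2 enzymes of the mature cell, Acp5 and Ctsk, that did not pass the test. They are RefSeq windows on GRCm38.p6, from 250 bases before to 50 after an annotated start: Ckb at chr12:111672289-111672588 on the minus strand, Acp5 at chr9:22130549-22130848 on the minus strand and Ctsk at chr3:95498960-95499259 on the plus strand. Acp5 has 3 such windows, and the one nearest the end of the gene is shown. Capitals mark motifs that were searched on both strands. One was the core bound by NFAT factors, GGAAA. Another was the core bound by PU.1, a factor of the monocyte line, GAGGAA, which can overlap an NFAT core. The others were the site of AP-1 factors, TGANTCA, and the TATA box of the basal transcription machinery, TATAAA.
Ckb: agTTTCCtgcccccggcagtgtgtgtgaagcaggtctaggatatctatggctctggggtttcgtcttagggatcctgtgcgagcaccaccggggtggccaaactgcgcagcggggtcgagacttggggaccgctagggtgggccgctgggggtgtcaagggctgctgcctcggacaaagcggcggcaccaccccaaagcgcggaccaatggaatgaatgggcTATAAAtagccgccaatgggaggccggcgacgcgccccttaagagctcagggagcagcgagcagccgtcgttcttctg
Acp5: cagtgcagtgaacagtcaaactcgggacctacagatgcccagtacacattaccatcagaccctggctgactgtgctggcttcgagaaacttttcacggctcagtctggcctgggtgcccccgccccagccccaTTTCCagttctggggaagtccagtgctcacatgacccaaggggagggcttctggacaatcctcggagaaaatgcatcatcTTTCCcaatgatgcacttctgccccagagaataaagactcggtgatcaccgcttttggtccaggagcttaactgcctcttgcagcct
Ctsk: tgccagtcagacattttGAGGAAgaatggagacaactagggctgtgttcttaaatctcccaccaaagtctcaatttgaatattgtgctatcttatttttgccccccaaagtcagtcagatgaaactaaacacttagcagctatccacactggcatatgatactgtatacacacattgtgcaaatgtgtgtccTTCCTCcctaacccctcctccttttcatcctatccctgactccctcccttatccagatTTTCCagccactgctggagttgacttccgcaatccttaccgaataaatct

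The Ckb window held 1 NFAT core and 1 TATA box. The Acp5 window held 2 NFAT cores, and its other 2 windows held 1 each. The Ctsk window held 1 NFAT core and 2 PU.1 cores. No AP-1 match was present in these windows. Of all 32851 windows of this length, 61.3% held an NFAT core, 28.3% a PU.1 core, 7.81% an AP-1 site and 13.6% a TATA box. These matches describe the letters and were not tied to the signals. Windows were found for 7 of the 10 genes.

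Tnfrsf11a encodes RANK, the receptor through which RANKL starts osteoclast formation. Knockout 5 read 6.07, and knockout 2 and the 3 wild-type mice all read 5.78. Only knockout 5 stood apart, above the others, and the groups overlapped. The change came to 0.15 (SE 0.10, limma's adjusted p = 0.399). After quantile normalisation, cyclic loess, and centring with scaling it was 0.29, 0.30 and 0.34 (adjusted p = 0.144, 0.107 and 0.0951).

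Oscar encodes a collagen-binding immune receptor that gives the ITAM signal beside RANK. Its signal was 4.47 in knockout 2 and 4.82 in knockout 5 and in wild types 3, 4 and 6. Only knockout 2 stood apart, below the others. The change was -0.17 (SE 0.12, adjusted p = 0.399 by limma), and -0.10 with each array centred on its median.

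Calcr encodes the receptor for calcitonin, the hormone that stops bone resorption. It was at 5.28 in knockout 2 and at 5.27 in the other 4 arrays. This was the flattest of the 10 genes, with a change of 0.0058 (SE 0.016, limma's adjusted p = 0.842) and a 95% interval from -0.04 to 0.052. A gene with identical signals on all 5 arrays had an SE of 0.015. The SE of Calcr therefore comes mostly from limma's moderation and does not measure the spread between mice. After scalings of the arrays the change was 0.078 to 0.11.

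Nfatc1, the master transcription factor of osteoclast formation, was at 5.37 in knockout 2 and at 5.86 in the other 4 arrays. The knockout mice therefore differed by 0.49 from each other, and knockout 5 did not differ from wild type. The change came to -0.24 (SE 0.17, limma's adjusted p = 0.399), and -0.087 with the arrays centred and scaled.

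Tcirg1, the a3 subunit of the proton pump and a gene whose loss causes osteopetrosis, had the largest gap between the knockout mice. Knockout 2 read 4.47, and the other 4 arrays all read 5.73. The change of -0.63 (SE 0.43) did not pass (limma's adjusted p = 0.399), and its 95% interval ran from -1.86 to 0.60.

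In these 5 genes the change rests on a single array. Knockout 2 stood apart in 4 of them (Oscar, Calcr, Nfatc1 and Tcirg1) and knockout 5 in 1 (Tnfrsf11a). Over all genes 17.7% had 4 identical arrays and 1 knockout array apart, 10.7% with knockout 2 apart and 7.02% with knockout 5 apart. The test turned on which knockout array was kept. Without knockout 5, limma's adjusted p was 4.8e-07 for Oscar, 0.00046 for Calcr, 3.3e-07 for Nfatc1 and 2.8e-07 for Tcirg1. Without knockout 2 the change of these 4 genes was 0 and that of Tnfrsf11a was 0.29 (adjusted p = 9.6e-07), and without knockout 5 that of Tnfrsf11a was 0. These p-values take the spread of the lone knockout array from wild-type arrays with identical signals, so they do not measure the spread between mice. In the same settings 7513 of all genes passed without knockout 2 and 9999 without knockout 5.

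Itgb3 encodes the integrin chain beta 3, which pairs with alpha v to hold the osteoclast on bone and is also the chain of the platelet fibrinogen receptor. Its signal was 4.92 in knockout 2 and 5.06 in knockout 5, and 5.48, 5.37 and 5.37 in wild types 3, 4 and 6. Both knockout mice lay below all wild-type mice. The change was -0.41 (SE 0.065, 95% interval -0.60 to -0.22), with limma's adjusted p = 0.0725. It was -0.55 within run 1 and -0.31 within run 2, and -0.33 to -0.34 under the 4 scalings of the arrays. Without knockout 5 it was -0.48 (limma's adjusted p = 0.0295) and without knockout 2 it was -0.34 (adjusted p = 0.0696), with the lone array's spread taken from wild type. Leaving out wild type 3, 4 or 6 gave adjusted p = 0.233, 0.284 and 0.281.

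Among the markers of platelets and their precursor cells, which share Itgb3, 0 of 6 other measured genes passed limma's test and 0 had an unadjusted p under 0.05. Itga2b, the partner of Itgb3 in platelets, was at 5.33 in knockout 2, 5.97 in knockout 5 and 5.66 in all wild-type mice. The log2 of the summed unlogged signals of these 6 genes was 7.92 and 8.44 in knockout and 8.41 to 8.52 in wild type. Their part in the Itgb3 difference was not tested. Itgav, the partner of Itgb3 in osteoclasts, was at 4.63 in knockout 2, 5.37 in knockout 5 and 5.30 in all wild-type mice.

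Atp6v0d2 encodes the d2 subunit of the proton pump, which osteoclast precursors also need to fuse. Its signal was 4.14 in knockout 2 and 4.07 in knockout 5, and 3.98, 4.02 and 3.70 in wild types 3, 4 and 6. The groups did not overlap, but the gap between knockout 5 and wild type 4 was smaller than the gap between wild types 4 and 6. The change came to 0.20 (SE 0.12, limma's adjusted p = 0.399), and 0.046 after cyclic loess.

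Ctsk encodes cathepsin K, the protease that cuts the collagen of bone. Its signal was 5.01 in knockout 2 and 5.40 in knockout 5, and 4.43, 4.66 and 4.66 in wild types 3, 4 and 6. Both knockout mice lay above all wild-type mice. The change of 0.62 (SE 0.16, 95% interval 0.15 to 1.09) corresponds to 1.54-fold, and it did not pass (limma's adjusted p = 0.171). It was 0.58 within run 1 and 0.74 within run 2, and 0.63 to 0.69 under the scalings. With the run as a block its adjusted p was 0.0648.

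Acp5 encodes tartrate-resistant acid phosphatase, the enzyme stained to show osteoclasts. Its signal was 5.13 in knockout 2 and 5.68 in knockout 5, and 5.98, 5.95 and 5.95 in wild types 3, 4 and 6. Both knockout mice lay below all wild-type mice, knockout 2 by more. The change was -0.56 (SE 0.19, 95% interval -1.10 to -0.013), with limma's adjusted p = 0.264. It was -0.85 within run 1 and -0.27 within run 2, and -0.41 to -0.48 under the scalings. Without knockout 2 it was -0.28 (adjusted p = 0.0051) and without knockout 5 it was -0.83 (adjusted p = 0.00039), with the lone array's spread taken from wild type, where the SD was 0.013 (n = 3). Without wild type 3, 4 or 6 limma's adjusted p was 0.574, 0.586 and 0.579.

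Ckb read 6.23 in knockout 2, 5.97 in knockout 5, and 7.23, 7.35 and 7.23 in wild types 3, 4 and 6. Both knockout mice lay about 1 log2 unit or more below every wild-type mouse. The group means were 6.10 ± 0.19 (SD, n = 2) and 7.27 ± 0.066 (SD, n = 3). The change was -1.17 (SE 0.10), a knockout level of 0.444 times the wild-type level with a 95% interval from 0.363 to 0.543, and limma's adjusted p was 0.0299. By p, Ckb ranked 340 among the 19938 genes. Wild types 3 and 6 had identical signals, which narrows the wild-type SD and the SE.

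The difference of Ckb was present in both array runs, at -1.0 within run 1 and -1.32 within run 2. With the run as a block it was -1.18 and did not pass (limma's adjusted p = 0.0766). Centring each array on its median left -1.10 (adjusted p = 0.0369). Quantile normalisation, cyclic loess, and centring with scaling gave -0.97, -0.91 and -0.85, with adjusted p = 0.081, 0.0904 and 0.11. Without wild type 3, 4 or 6 the change was -1.19, -1.13 and -1.19, with adjusted p = 0.156, 0.177 and 0.202, and with array weights it was -1.12 (adjusted p = 1).

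Ckb is not particular to osteoclasts, since nerve, muscle and other tissues hold it too. Among markers of neurons and Schwann cells, 2 of 11 measured genes fell (Nefl, a neurofilament, by 0.62 and Uchl1 by 0.59 on the log2 scale) and 1 rose (Cdh19, 0.50). Among markers of skeletal muscle 1 of 16 fell, the glycogen phosphorylase Pygm (-0.62), and the muscle actin Acta1 was at 5.60 in both knockout mice and 6.32 to 6.68 in wild type. With the run as a block, after quantile normalisation, after cyclic loess and with array weights, 0 genes of either list passed limma's test. The same held without any 1 wild-type array. In all these settings 0 of all 19938 genes passed, so they cannot tell these lists from other genes. With arrays centred and scaled 1 nerve gene and 0 muscle genes fell and 0 rose, beside 68 falls and 90 rises over all genes. The log2 of the summed unlogged signals was 8.84 and 8.79 in knockout and 8.87 to 8.88 in wild type for the nerve list. For the muscle list it was 9.58 and 9.73 against 9.91 to 10.04. The part of both lists in the fall of Ckb was not tested. Of the other creatine genes, 0 of 6 passed limma's test and 1 had an unadjusted p under 0.05. The muscle-type kinase Ckm was at 6.86 and 6.91 in knockout and 6.87 to 6.90 in wild type, and Gatm, which makes the precursor of creatine, had a change of -0.53 (adjusted p = 0.213).

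**Figure D2:**
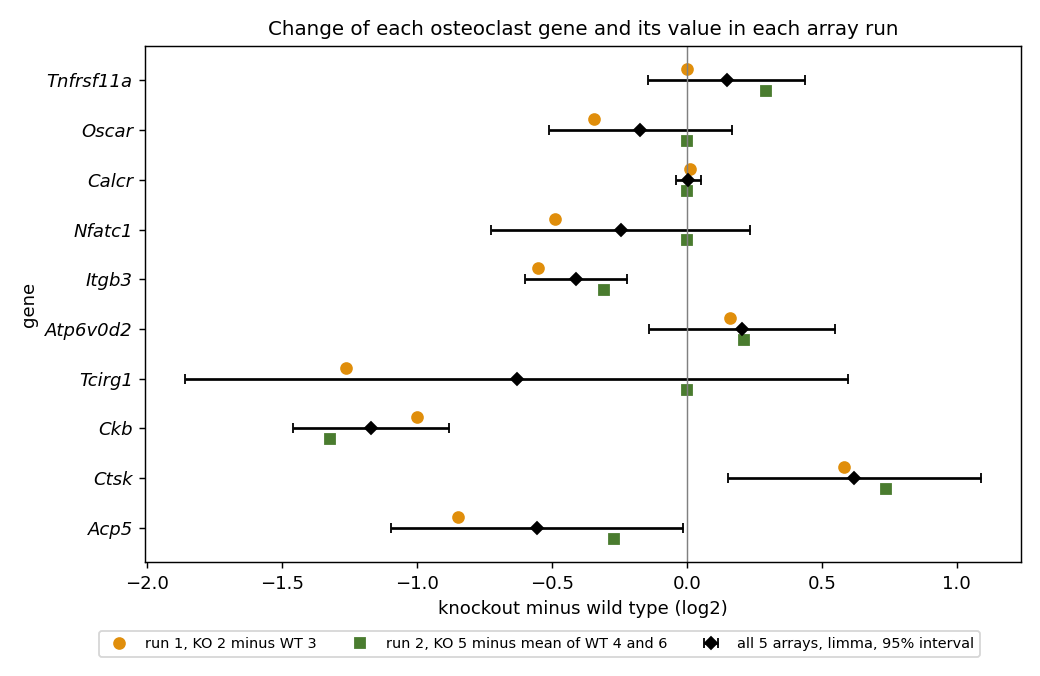
Change of each osteoclast gene, knockout minus wild type on the log2 scale (horizontal axis), with limma's 95% interval over all 5 arrays (diamonds and bars), within run 1 (circles) and within run 2 (squares). Ckb, Itgb3 and Acp5 lie below 0 and Ctsk and Atp6v0d2 above 0 in both runs, while the other 5 genes are at 0 in 1 of the runs.

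The direction of the 5 genes without overlap was that of the median change among all genes of like signal in wild type. Of all genes, 31.5% had groups that did not overlap, 18.6% with knockout lower and 13.0% with knockout higher, and among the osteoclast genes 3 were lower and 2 higher. When all genes were put in 10 equal bins by wild-type signal, the median change was 0.16 in the bin that holds Atp6v0d2 and 0.067 in that of Ctsk. It was -0.10, -0.22 and -0.34 in the bins that hold Itgb3, Acp5 and Ckb. The genes resting on a single array were mixed. Nfatc1 and Tcirg1 had changes below 0 in a bin with a median of -0.16, while Tnfrsf11a in the same bin was at 0.15. Calcr was at 0.0058 in a bin with a median of -0.044, and Oscar at -0.17 in a bin with a median of 0. In the bin of Ckb 85.6% of genes had a change below 0, and in that of Ctsk 28.9% did. The change contains the wild-type signal, so the bins describe the table, and the part of this pattern in the changes of single genes was not tested. The scalings of the arrays left the direction of all 10 genes as it was.

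**Figure D3:**
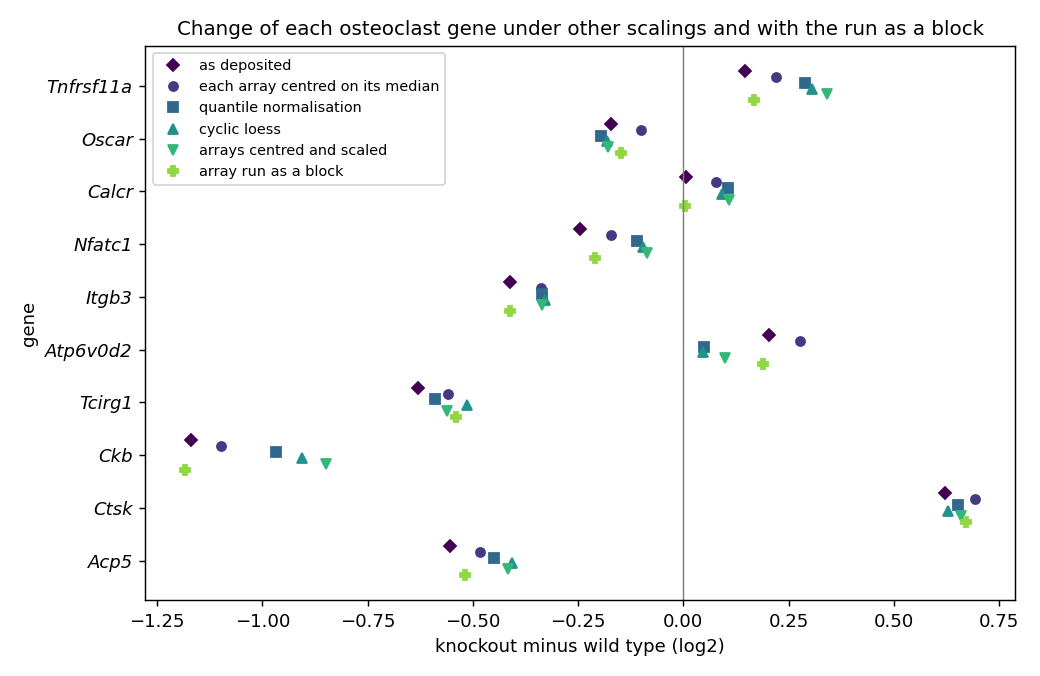
Change of each osteoclast gene (log2, horizontal axis) in the deposited values, under 4 other scalings of the arrays and with the array run as a block. No gene turned its direction; Ckb moved most, from -1.17 to -0.85.

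The median change of the 10 genes was -0.21, beside -0.0083 for all genes tested. Under the 4 scalings it was -0.13 to -0.15, beside 0.0097 to 0.064 for all genes. Of the 10 genes 7 lay above the median signal of all genes. Their median change was -0.41, beside -0.13 for all genes above that signal. The part of signal level in these medians was not tested. Knockout 2 lay below the wild-type mean in 6 genes and above it in 3, with a median difference of -0.41. Knockout 5 lay below in 3, above in 3 and at the wild-type value in the other 4, with a median difference of 0. The log2 of the summed unlogged signals of the 10 genes was 8.53 for knockout 2 and 8.82 for knockout 5, against 9.03 to 9.08 for the wild-type mice. Bright genes weigh most in such a sum, and Ckb was the brightest of the 10 in wild type (mean 7.27).

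Around these genes, 109 of 115 listed genes of osteoclast formation and function were measured. Of them 1 fell, 0 rose and 108 did not pass, and 15 had an unadjusted p under 0.05 in limma. Over all genes 3.73% passed and 18.2% had an unadjusted p under 0.05, shares to be read beside the counts of each list below. Their median change was -0.075, which went to -0.0031 to 0.04 under the scalings.

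In the list of RANK, ITAM and M-CSF signalling 0 of 19 genes passed limma's test and 3 had an unadjusted p under 0.05. Tnfsf11, which encodes RANKL, read 6.84 in knockout 2 and 7.39 in knockout 5, against 7.39 to 7.49 for the wild-type mice. Tnfrsf11b encodes osteoprotegerin, the decoy that binds RANKL away from RANK. It read 5.90 in knockout 2, 5.70 in knockout 5 and 5.40 in all 3 wild-type mice. The change came to 0.39 (SE 0.069, limma's adjusted p = 0.0847). Without knockout 2 its adjusted p was 9.6e-07 and without knockout 5 it was 3.3e-07, again with the spread of identical wild-type signals, and without wild type 3, 4 or 6 it was 0.314, 0.336 and 0.326. The kinase Map3k14 of the alternative NF-kB route was at -0.54 (adjusted p = 0.106), and Csf1r, the M-CSF receptor of the precursors, had the same signal of 5.08 on all 5 arrays.

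Among 16 transcription factors of osteoclasts 0 passed limma's test and 2 had an unadjusted p under 0.05. These were the AP-1 factor Fosl2, at 5.38 and 5.45 in knockout and 6.04 to 6.29 in wild type (-0.71, SE 0.10, adjusted p = 0.0625), and Nfkb2, at 5.57 and 5.82 against 6.16 in wild type (-0.47, adjusted p = 0.097). Among 11 genes of precursor fusion 0 passed and 2 had an unadjusted p under 0.05. Dcstamp, the fusion receptor, was at 4.74 and 4.85 in knockout and 4.85 to 4.94 in wild type. The podosome scaffold Sh3pxd2a was at -0.45 (adjusted p = 0.114) and Cd47 at -0.29 (adjusted p = 0.237).

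In the list of acid secretion and lysosome trafficking 0 of 11 genes passed and 3 had an unadjusted p under 0.05. Ostm1 encodes the partner that the chloride exchanger Clcn7 needs, and loss of either causes osteopetrosis. Ostm1 read 3.93 in knockout 2, 3.50 in knockout 5, and 5.10, 4.91 and 4.91 in wild type. Both knockout mice lay below all wild-type mice, and the change of -1.26 (SE 0.17) missed the threshold (limma's adjusted p = 0.0549). It was -1.19 to -1.40 under the scalings, and did not pass there. Limma's adjusted p was 0.0126 without knockout 2 and 0.0193 without knockout 5, settings that test a lone knockout array against the wild-type spread. It was 0.224, 0.252 and 0.254 without wild type 3, 4 or 6, and 1 with array weights. Clcn7 itself had the same signal of 5.11 on all 5 arrays. The pump subunit gene Atp6v1c2 held the identical value on all 5, so a steady level of Clcn7 cannot be read from it. Car2, the carbonic anhydrase that supplies the protons, was at 4.20 and 4.64 in knockout and 3.80 to 3.88 in wild type, a change of 0.57 (adjusted p = 0.176), and Rab38 was at 0.38 (adjusted p = 0.175).

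Of 22 other V-ATPase subunits 1 fell, 0 rose and 21 did not pass. Atp6v1b1, a B subunit best known from acid-secreting kidney cells, was at 5.16 and 5.11 in knockout and 5.38 to 5.39 in wild type (-0.25, SE 0.024, limma's adjusted p = 0.0339). Its wild-type signals held 2 distinct values, and under the 4 scalings it was at -0.15 to -0.17 with adjusted p = 0.244 to 0.335. With the run as a block its adjusted p was 0.0835, and without wild type 3, 4 or 6 it was 0.163, 0.204 and 0.218. Atp6v1d, a subunit of the rotor, lay the other way, at 6.25 and 5.83 in knockout and 5.12 to 5.26 in wild type (0.84, adjusted p = 0.0924). The widely used forms of the d and a subunits, Atp6v0d1 and Atp6v0a1, were at -0.32 (adjusted p = 0.399) and -0.27 (adjusted p = 0.399), beside 0.20 for Atp6v0d2 and -0.63 for Tcirg1. The subunits' median change was -0.18, with -0.11 within run 1 and -0.011 within run 2.

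Among 9 other genes of matrix resorption 0 passed and 1 had an unadjusted p under 0.05, the membrane collagenase Mmp14 (-0.19, limma's adjusted p = 0.147). Mmp9, the gelatinase of osteoclasts, read 3.74 in knockout 2 and 5.24 in knockout 5, against 5.34 to 5.50 for the wild-type mice, so most of its change of -0.90 (adjusted p = 0.399) lay in knockout 2. Among 15 adhesion and actin ring genes 0 passed and 0 had an unadjusted p under 0.05. The lowest p belonged to Itgb5 (-0.60, adjusted p = 0.376) and Dock5 (-0.14, adjusted p = 0.399), and the sign of Dock5 turned under 3 scalings.

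Osteoclasts share their origin with macrophages, and of 17 monocyte and macrophage markers 0 passed limma's test and 1 had an unadjusted p under 0.05. Of these 12 had a change above 0, with a median of 0.076, and 7 of the 17 lay above the median signal of all genes. The median change of all genes above that signal was -0.13. The part of signal level in the medians of these lists was not tested. Cd68 read 4.85 in knockout 2, 5.38 in knockout 5 and 5.04 in all wild-type mice, and Adgre1 at 4.00 on all arrays. The log2 of the list's summed unlogged signals was 9.25 and 9.32 in knockout and 9.13 to 9.19 in wild type. For 16 osteoblast and osteocyte markers 0 passed, 2 had an unadjusted p under 0.05, and the median was -0.073. Col1a1, the collagen of bone, was at 6.53 and 7.07 in knockout and 7.26 to 7.27 in wild type. The log2 of the summed unlogged signals of that list was 9.81 and 10.21 against 10.17 to 10.21. Of 18 chondrocyte markers, 14 of them above the median signal of all genes, 3 fell (Sox9, Comp and Col9a3), with a median of -0.28. For these 18 markers the log2 of the summed unlogged signals was 10.06 and 10.28 in knockout against 10.45 in wild type. With the run as a block, with array weights, under the 4 scalings and without any 1 wild-type array 0 of them passed limma's test. Over all genes 0 passed in these settings too, except 635 with each array centred on its median and 158 with arrays centred and scaled. The median of the 18 markers under the scalings was -0.086 to -0.21. The part of these lists in the differences of the osteoclast genes was not tested.

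**Figure D4:**
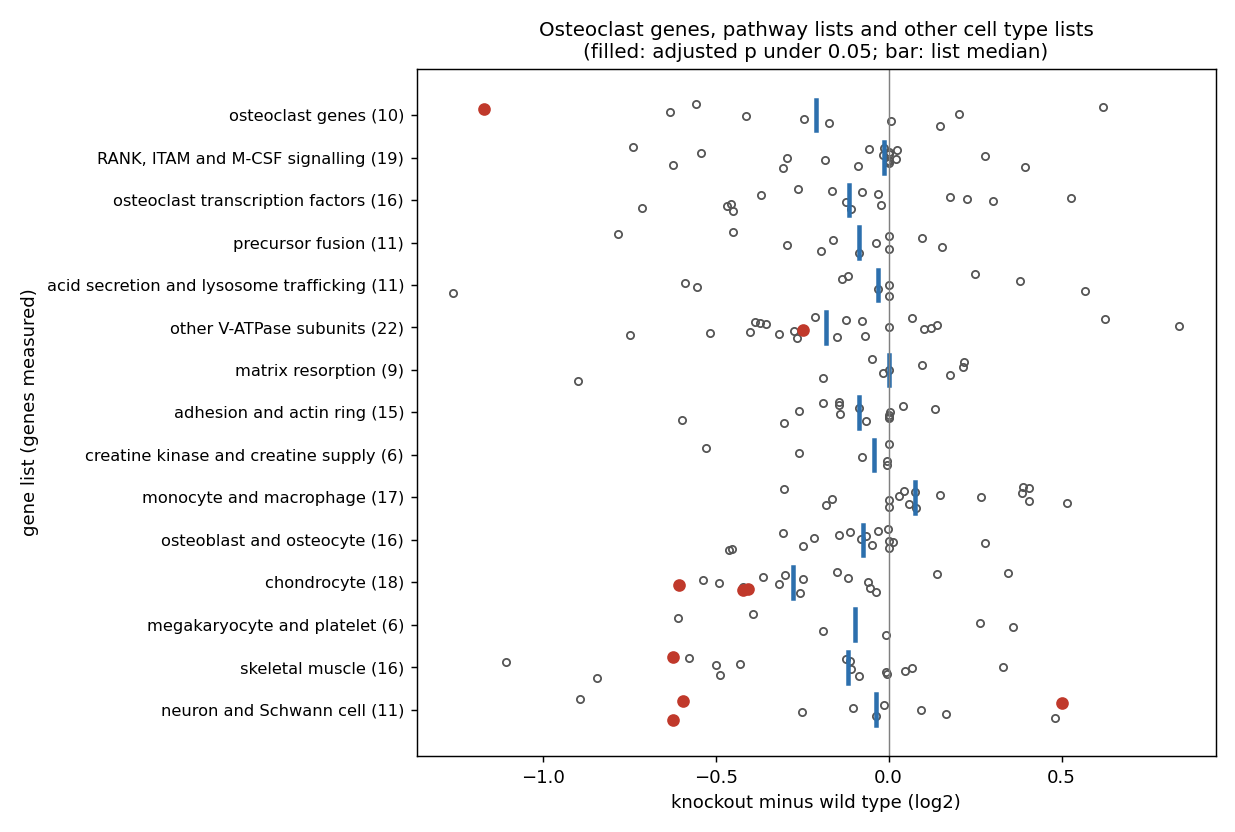
Change of every measured gene (log2, knockout minus wild type, horizontal axis) in the 10 osteoclast genes, 8 lists of osteoclast formation and function and 6 lists of other cell types, with list sizes in brackets, medians as bars and genes past adjusted p under 0.05 filled. Genes passed in 5 of the rows, and the osteoclast genes spread from -1.17 for Ckb to 0.62 for Ctsk.

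The genes whose signals followed Ckb most closely over the 5 arrays were Atp5j2, Prdm15 and Dnph1, by the root-mean-square distance between signals centred on each gene's mean. Their distances were 0.056, 0.059 and 0.063, and their changes -1.12, -1.09 and -1.21. For Ctsk they were Ephx1, Dnmt3aos and Zfp385c, with distances of 0.021, 0.039 and 0.04 and changes of 0.65, 0.67 and 0.65. With 5 arrays many genes can share such a pattern.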

How the data were processed

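Gene expression was measured on 5 Affymetrix mouse gene 1.0 ST arrays, 2 of knockout and 3 of wild-type cartilage. The deposited log2 values were made by the authors with Affymetrix Expression Console and RMA, per the submitters' processing notes. RMA corrects background, quantile-normalises arrays and summarises probes by median polish, which can return identical values. The software version and the genome build were not given in the sources used here.

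Of 35556 rows, 21789 had 1 gene symbol, and the brightest row stood for a gene with several, which left 19938 genes. The annotation table gave the symbols, and all 10 osteoclast genes matched GRCm38.p6 by gene identifier. Knockout was set against wild type by lmFit and eBayes of limma 3.58.1 (R 4.3.3, two-sided), with Benjamini-Hochberg adjustment over all genes and a threshold of 0.05. The fit was tested on simulated data with independent noise and no identical signals. In the deposited data 39.1% of genes had identical wild-type signals, so that test does not cover them.

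The osteoclast genes and lists were chosen with earlier results of these data known. Named genes were the 10, list genes past the threshold, the 2 of lowest p per osteoclast list, set key genes and the 3 most like Ckb and Ctsk. The labels name 1 mouse per array but not how tissue was collected, so p-values measure the spread between these arrays, whose number limits precision. Alternatives covered scaling, run, filters, rows, variance model and each array left out.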

Additional observations from a re-analysis of the deposited data

How the results depend on the processing

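All 10 osteoclast genes kept their direction, or came to 0, under the alternatives run. The count of osteoclast genes past the threshold was 1 as deposited and 0 with quantile normalisation, cyclic loess, arrays centred and scaled, the run as a block, array weights, and genes without identical wild-type values, with 5, 5, 4, 3, 2 and 0 at an unadjusted p under 0.05 in limma. That last setting could test 1 of the 10 genes. Leaving out 1 array gave counts from 0 to 7. Over all genes the count was 744 as deposited, 0 with quantile normalisation, cyclic loess, the run as a block and array weights (3761, 3919, 3829 and 1917 at an unadjusted p under 0.05), 158 with arrays centred and scaled, 446 of 9969 among genes above the median level, 454 of 3652 without identical wild-type values, and from 0 to 9999 with 1 array left out. The estimate of array weights stopped before its tolerance was reached. Centring each array on its median gave 343 rises and 292 falls in place of 309 and 435, and centring with scaling gave 90 and 68. Averaging rows, testing all rows and a variance trend left 1 osteoclast gene called. Dock5 turned from -0.14 to 0.0050 after quantile normalisation, to 0.014 after cyclic loess and to 0.040 once arrays were centred and scaled. The cause of these shifts was not tested. The groups share no replicate number, so arrays could not be paired by number, and the array run was the block that was fitted.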

Other observations

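Many values of the deposited table recur across unrelated rows of the same array, and several osteoclast genes hold such values. In wild type 6 the table's 35556 rows held 20718 distinct values and 47.6% of rows shared theirs with another row, against 29.8% of rows in knockout 2. The Atp6v0d2 signal of knockout 2 was shared by 543 other rows of that array, the second most common value there. The Ctsk signal was shared by 116 other rows in wild type 4 and 118 in wild type 6, and by 0 in the other 3 arrays. The Itgb3 signal was shared by 72 and 82 other rows in wild types 4 and 6, and the Calcr signal by 39 to 89 other rows in the 4 arrays where it was identical. Ckb shared its signal with at most 2 other rows on any array, and Acp5 with 0. Raw probe values were not used here.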
